A study of Mus musculus with 6 samples.

Results

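The regions described here are promoter-sized stretches of the mouse genome that belong to 2 different genes at the same time. They come from reduced representation bisulfite sequencing (RRBS), in which DNA is cut at CCGG sites, treated with bisulfite so that unmethylated cytosines are read as thymine, and sequenced, so that the share of reads still showing cytosine gives the methylation level of a position. DNA came from quadriceps muscle of C57BL/6 mice: 3 samples of exercised mice, trained on a motorised treadmill for 4 weeks and sampled 3 h after the last bout, and 3 samples of sedentary controls, with no genetic change or drug in either group. The labels do not say whether the samples of a group were separate animals or pools, so the p-values reflect variation among samples that may be technical. The tissue is whole muscle, in which a level is an average over all cell types present.

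The authors' table lists 10755 regions of 3000 bp, each keyed to a RefSeq transcript (mm9 coordinates), of which 10550 lie on autosomes. A region was taken where it overlapped, by at least 1 bp, an autosomal region with a different gene symbol. That gave 253 regions of 251 gene symbols in 129 overlapping pairs on 18 autosomes, and 228 of the regions held at least 3 listed positions, the minimum for every test and summary over regions; the separate parts of single pairs are described below also where they hold fewer. The remaining comparison set was 10136 autosomal regions that overlap no other, 9474 of them with at least 3 positions. Another 82 autosomal overlaps joined regions of the same symbol and 7 involved a region with no symbol, and these were left out. Overlaps ranged from 46 bp to 2811 bp with a median of 1324 bp, and 101 pairs overlapped by 500 bp or more. A region's level is the share of methylated reads over all its listed positions, and the members were chosen by coordinates, not by level. Membership still depended on which positions are listed under which region, as described below.

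In mammals, many neighbouring genes are transcribed away from each other from one CpG-rich stretch, a bidirectional promoter, and such pairs often serve housekeeping functions such as DNA repair, mitochondrial function and RNA processing. Cytosines in CpG-rich promoters are usually unmethylated, while CpGs away from a start site are usually methylated. Overlap of 2 fixed-length regions is a looser condition than a bidirectional promoter, because the starts may lie far apart, or the genes may point towards each other or in one direction.

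Strands were taken from the RefSeq promoter table (GRCm38.p6), which held 210 of the 253 regions' genes, so that 93 of the 129 pairs could be ordered. In 60 pairs the region of a minus-strand gene lay first (at the lower coordinate), in 27 the region of a plus-strand gene lay first, and in 6 both genes were on one strand. In regions that overlap no other, listed positions were densest 2000 to 2250 bp from the region's start for plus-strand genes (34.4% of positions) and 750 to 1000 bp for minus-strand genes (35.0%), which places the gene start about 2000 bp into a plus-strand region and 1000 bp into a minus-strand one. The authors' own rule of placement is not given in the sources. With that placement, the distance between the 2 gene starts was within 10 bp of the distance in the RefSeq table for 49 of the 93 pairs, and the others may use another transcript start.

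**Figure D1:**
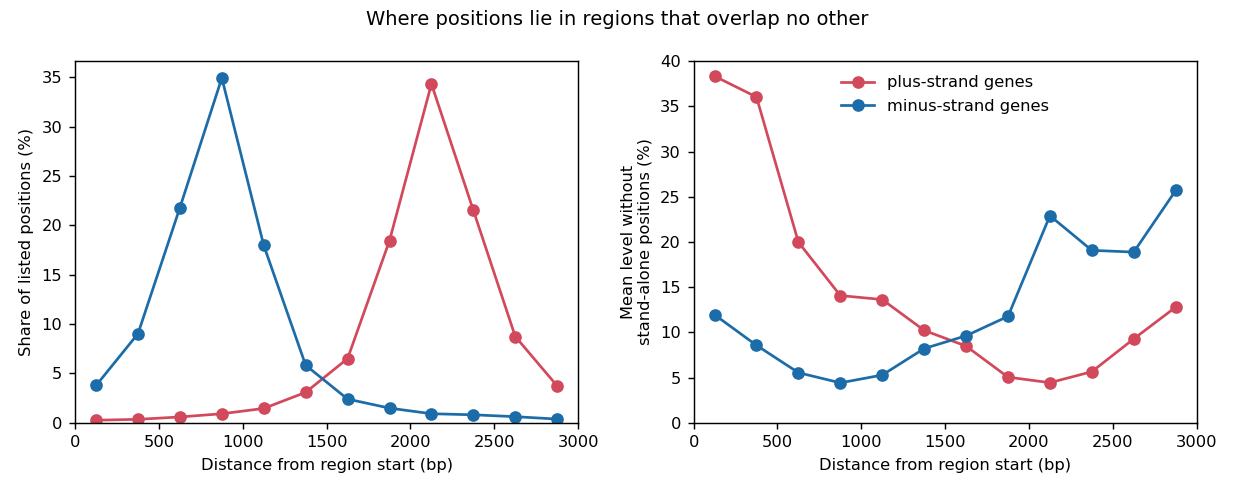
Share of listed positions (left, %) and mean methylation level without stand-alone positions (right, %) against distance from the region's start in bp, in 250 bp steps, over regions that overlap no other, for plus-strand (red) and minus-strand (blue) genes. Positions peak at 2000 to 2250 bp for plus-strand and 750 to 1000 bp for minus-strand genes, where the level is lowest.

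On this placement the 60 pairs with the minus-strand region first were head to head with starts 1190 to 3949 bp apart (median 2742.5 bp). Of the 27 pairs with the plus-strand region first, 17 were head to head with starts 29 to 512 bp apart (median 113.0 bp), and in 10 the starts faced each other 74 to 1779 bp apart. With this placement head-to-head starts within 1000 bp can occur in plus-first pairs alone, and for 7 of these 17 pairs the distance was within 10 bp of the RefSeq table. By the RefSeq starts, some of the 17 faced each other instead. These were Pigc with 4930558K02Rik (10448 bp), Trmt112 with Prdx5 (408 bp), Twnk with Mrpl43 (779 bp), Shoc2 with Bbip1 (321 bp) and Ubl5 with Fbxl12 (1889 bp). The same held for the minus-first pair Fkbp14 with Plekha8 (2233 bp). Each promoter window in the RefSeq table runs from 250 bases before to 50 bases after the start. In 12 of the 93 pairs the 2 windows held an identical run of 30 bases or more on opposite strands, 128 to 258 bases long, and the longest run in any other pair was 25 bases. Of these 12 pairs, 9 had the plus-strand region first and 3 the minus-strand region first. In those 3 (Zfp661 with Mrps5, Atpif1 with Dnajc8, Sphk2 with Rpl18) the RefSeq starts lie 332, 145 and 69 bp apart, against 2749, 1900 and 2864 bp by the deposited regions, so another start was used there.

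The promoter sequences of pairs in different arrangements are given here because their levels are described further on. Cpsf7, a subunit of the pre-mRNA cleavage factor, and Sdhaf2, an assembly factor of mitochondrial succinate dehydrogenase, start 35 bp apart head to head, and capitals mark the 134 bases that each window holds as the reverse complement of the other (RefSeq, GRCm38.p6, Cpsf7 at chr19:10524994-10525293 on the plus strand and Sdhaf2 at chr19:10525160-10525459 on the minus strand).
Cpsf7: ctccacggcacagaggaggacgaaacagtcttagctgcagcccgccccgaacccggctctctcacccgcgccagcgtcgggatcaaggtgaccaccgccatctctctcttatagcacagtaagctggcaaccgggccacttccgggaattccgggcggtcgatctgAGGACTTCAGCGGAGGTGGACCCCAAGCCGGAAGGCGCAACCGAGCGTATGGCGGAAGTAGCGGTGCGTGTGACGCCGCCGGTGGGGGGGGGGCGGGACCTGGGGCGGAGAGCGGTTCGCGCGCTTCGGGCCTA
Sdhaf2: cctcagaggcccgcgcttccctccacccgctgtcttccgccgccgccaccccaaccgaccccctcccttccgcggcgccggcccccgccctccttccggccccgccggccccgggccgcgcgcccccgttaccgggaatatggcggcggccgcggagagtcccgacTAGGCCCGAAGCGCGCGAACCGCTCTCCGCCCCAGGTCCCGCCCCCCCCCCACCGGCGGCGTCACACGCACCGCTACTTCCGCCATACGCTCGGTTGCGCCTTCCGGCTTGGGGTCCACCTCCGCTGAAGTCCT
The common run holds 18 CpGs, of 33 in the Cpsf7 window and 44 in the Sdhaf2 window. Each window contains the ETS core CCGGAAG, a binding motif of ETS transcription factors, on one strand or the other.

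Slc9a5, a sodium-proton exchanger, and Fhod1, a formin that acts on actin filaments, start 288 bp apart and have 213 bases in common, in capitals (Slc9a5 at chr8:105348008-105348307, plus strand, and Fhod1 at chr8:105347921-105348220, minus strand, same build).
Slc9a5: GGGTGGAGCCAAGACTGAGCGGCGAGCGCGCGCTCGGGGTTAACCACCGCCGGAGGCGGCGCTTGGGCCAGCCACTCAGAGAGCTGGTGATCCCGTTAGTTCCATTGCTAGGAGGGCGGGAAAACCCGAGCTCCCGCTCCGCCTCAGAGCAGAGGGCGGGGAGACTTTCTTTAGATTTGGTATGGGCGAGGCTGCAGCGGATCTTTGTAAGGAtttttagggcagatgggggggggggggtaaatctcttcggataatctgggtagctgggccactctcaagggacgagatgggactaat
Fhod1: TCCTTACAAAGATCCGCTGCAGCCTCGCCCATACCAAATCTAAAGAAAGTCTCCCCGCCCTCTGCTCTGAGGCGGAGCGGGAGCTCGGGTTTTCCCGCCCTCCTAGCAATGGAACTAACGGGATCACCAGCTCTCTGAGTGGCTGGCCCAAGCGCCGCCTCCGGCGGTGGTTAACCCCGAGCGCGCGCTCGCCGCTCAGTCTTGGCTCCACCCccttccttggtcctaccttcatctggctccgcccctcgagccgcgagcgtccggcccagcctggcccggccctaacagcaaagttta
This run holds 18 CpGs as well, of 20 and 25 in the whole windows. CCGG, the site at which RRBS fragments begin, occurs 1 time in the Slc9a5 window and 3 times in the Fhod1 window, against 6 and 7 times for Cpsf7 and Sdhaf2.

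Clcn2, a chloride channel, and Polr2h, a subunit common to the nuclear RNA polymerases, have the longest overlap of regions (2811 bp), yet their starts lie 1190 bp apart and their windows have no run longer than 10 bases in common. Capitals here mark CpGs (Clcn2 at chr16:20716587-20716886, minus strand, and Polr2h at chr16:20717576-20717875, plus strand, same build).
Clcn2: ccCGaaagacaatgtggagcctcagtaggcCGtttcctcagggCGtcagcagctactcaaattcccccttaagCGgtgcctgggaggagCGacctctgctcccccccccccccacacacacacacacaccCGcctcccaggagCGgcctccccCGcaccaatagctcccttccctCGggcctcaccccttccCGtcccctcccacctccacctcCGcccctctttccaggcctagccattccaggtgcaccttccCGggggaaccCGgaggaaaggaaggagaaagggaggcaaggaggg
Polr2h: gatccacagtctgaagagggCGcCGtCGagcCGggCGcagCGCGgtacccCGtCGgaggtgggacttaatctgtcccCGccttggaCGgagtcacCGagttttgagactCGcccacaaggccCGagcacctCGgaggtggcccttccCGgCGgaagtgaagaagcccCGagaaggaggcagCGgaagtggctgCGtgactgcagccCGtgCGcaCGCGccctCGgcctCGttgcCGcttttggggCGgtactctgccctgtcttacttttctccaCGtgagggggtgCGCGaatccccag
The Clcn2 window holds 13 CpGs and the Polr2h window 31.

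Over the 208 member symbols with a promoter in the table, the median was 20 CpGs per 300-base window, against 22 in 7840 promoters of regions that overlap no other and 7 in all 27025 promoters. On either strand, the ETS core CCGGAAG (which contains CCGG) was present in 24% of member promoters, 17.0% of non-overlapping and 9.12% of all promoters. CCGG itself was present in 81.7%, 86.2% and 52.6%, the GC box GGGCGG in 61.5%, 68.4% and 35.9%, the CCAAT box CCAAT in 32.2%, 36.5% and 37.9%, the TATA box TATAAA in 3.37%, 6.29% and 14.2%, and the NRF-1 core motif in 1.92%, 1.81% and 0.977%. Member promoters held the ETS core in a higher share and the other listed motifs, apart from the NRF-1 core, in a lower share than non-overlapping promoters. These shares describe letters in the windows and were not tested.

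The table lists each position under only 1 region, which bears on every regional value. All 1739 positions inside a stretch common to both regions were listed under the region with the lower start, and 0 under the other. A second region of a pair therefore lacks the positions of the common stretch: the 127 regions that lay second in a pair had a median of 8 positions, against 16 for the 126 that lay first and 18 for regions that overlap no other. It is in the table at all only where it has a listed position outside that stretch. Pairs whose second gene had positions only in the common stretch are therefore absent from the members. The part of this selection in the levels was not tested. Positions fell in the common stretch in 62 pairs and not in the other 67. All 42 pairs overlapping by 2000 bp or more had such positions, against 20 of the 87 with a shorter overlap.

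The number of positions in the common stretch varied with the order of the genes. For the 47 minus-first pairs overlapping by under 2000 bp, only 4 had positions in it, with 0.681 per pair, against 1.33 in the same stretch of non-overlapping minus-strand regions and 1.27 of plus-strand ones. In the 17 plus-first pairs overlapping by 2000 bp or more the stretch held 43.9 positions per pair, against 24.7 and 25.3 in the same stretch of non-overlapping regions of either strand. In the 10 plus-first pairs with shorter overlaps it held 34.6, against 13.8 and 14.3. The 13 minus-first pairs with long overlaps held 17.8, close to the 16.0 and 15.7 of non-overlapping regions. These are descriptive counts with no test.

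Coverage summed over listed positions ran from 9153526 calls (sedentary 3) to 18656340 (sedentary 2), and in member regions from 151024 to 316120. A read counts here once for each listed position it covers. The median coverage per position in member regions was 27 to 58 reads. Many isolated positions had high levels among unmethylated neighbours. A position is called stand-alone here where its mean level is at least 10% while the other listed positions within 100 bp have a median under 10%; 66637 of the table's 268725 positions met this, 23.6% of positions in member regions and 24.8% in non-overlapping ones. The main comparisons and the parts of named pairs are given with all positions and, where such positions were among them, also without, and the part of these positions in the results was not otherwise tested.

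Overlapping regions had higher mean levels than regions that overlap no other, by a small margin. The margin was smaller where like stretches were compared, by a different measure of level. The 228 overlapping regions averaged 29.5% ± 0.570 (SD over the 6 samples) and the 9474 others 25.2% ± 0.679. Within bins of position count, which level depends on, the difference was 1.81, 2.22 and 1.94 percentage points in the exercised samples and 1.78, 2.57 and 2.31 in the sedentary ones. It was above 0 in 6 of 6 samples, with a mean of 2.10 points (exact two-sided sign-flip permutation test over 6 samples, p = 0.031, the smallest that design allows, and 0.0781 after Benjamini-Hochberg adjustment over 5 tests). This adjusted value is the smallest that the 5 tests allow, so none of them could have fallen under 0.05.

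The excess lay with the sparse regions and with those that lay second. In regions of 3 to 5 positions, overlapping regions averaged 47.5% ± 1.27 (42 regions) against 40.03% ± 0.463 (1178 regions), and in regions of 6 to 10 positions 33.9% ± 0.704 against 31.2% ± 0.572. With 11 to 20 positions the means were 24.7% and 24.5%, with 21 to 40 positions 21.8% and 21.3%, and with over 40 positions 18.0% and 18.2%. Regions that lay first exceeded the non-overlapping ones by 0.474 points and those that lay second by 3.85 points. The second regions were compared without the positions of the common stretch, and the excess with those positions added back is not given here. With 1 region per overlapping chain, the one with most positions, the difference was 0.358 points (exact sign-flip permutation test, p = 0.0625). Compared at the same position count, strand and distance from the region's start, which could be done for 190 regions, it was 0.0862 points, with 88 regions above and 102 below (p = 0.3125, same exact permutation test). The matched comparisons average position levels without weighting by reads, unlike the 2.10 points over 228 regions, so measure and regions differ as well. Matched in this way, regions that lay first were on the mean 0.385 points below the others (-0.762 to -0.0570 over the samples) and those that lay second 0.588 points above (0.391 to 0.846), so the sign turned for the first regions (exact permutation p = 0.031 for each, not adjusted). The median difference was -0.958 points for first regions (46 above, 52 below) and -0.615 for second ones (42 above, 50 below). For second regions mean and median thus differed in sign.

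Removing stand-alone positions made the difference larger. It was then 4.74 points over all overlapping regions, 2.31 for those that lay first and 7.38 for those that lay second. At the same count, strand and distance it was 2.46 points on the mean, while the median region lay 2.37 points below, with 69 regions above and 113 below, so mean and median differed in sign. Regions at 50% or more made up 27 of 228 overlapping (11.8%) and 473 of 9474 non-overlapping regions (4.99%), with all positions kept and position count not matched. They were 7 of 118 regions that lay first (5.93%) and 20 of 110 that lay second (18.2%), which lack the positions of the common stretch.

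**Figure D2:**
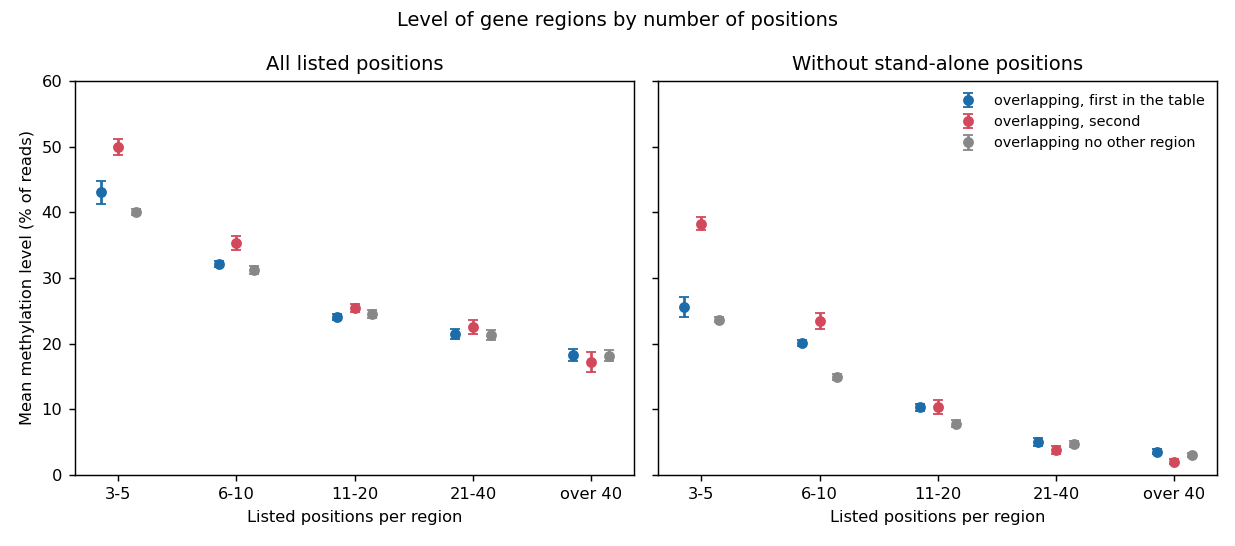
Mean methylation level (% of reads) of gene regions by number of listed positions, for overlapping regions that lay first (blue) or second (red) and for regions that overlap no other (grey), with all positions (left) and without stand-alone positions (right). Points are means over 6 samples and bars the SD over samples. Red lies above grey in the bins of 3 to 5 and 6 to 10 positions in both panels.

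The common stretch was on average less methylated than the rest of the 2 regions. In the 44 pairs with at least 3 positions in each part, it averaged 23.7% and the remaining parts 38.7%. The difference was -16.0, -15.3 and -14.4 points in the exercised samples and -13.4, -16.6 and -14.2 in the sedentary ones, with a mean of -15.0 (exact two-sided sign-flip permutation test over 6 samples, p = 0.031, adjusted 0.0781 over 5 tests, again the smallest they allow). The stretch was lower in 33 pairs and higher in 11, with a median pair difference of -8.21 points. The sign-flip tests here and above measure how far the samples agree, not the spread over pairs or regions. The stretch and the rest also differ in distance from the gene starts, and the part of that distance in the difference was not tested. Each second region is in the table only through positions outside the stretch, and the part of this was not tested either.

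Gene order separated the pairs in size. With the plus-strand region first the difference was -25.2 points over 13 pairs (23.0% against 48.3%), lowest -27.5 and highest -23.3 among the samples. With the minus-strand region first it was -4.46 points over 13 pairs (22.7% against 27.2%), between -5.54 and -2.66. The ranges of the samples did not overlap, but the difference between the orders was not tested. Without stand-alone positions the difference was -19.1 points over 39 pairs (10.2% against 29.3%), -37.4 over 10 plus-first pairs and -1.80 over 12 minus-first pairs, where samples ran from -3.86 to 0.712.

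**Figure D3:**
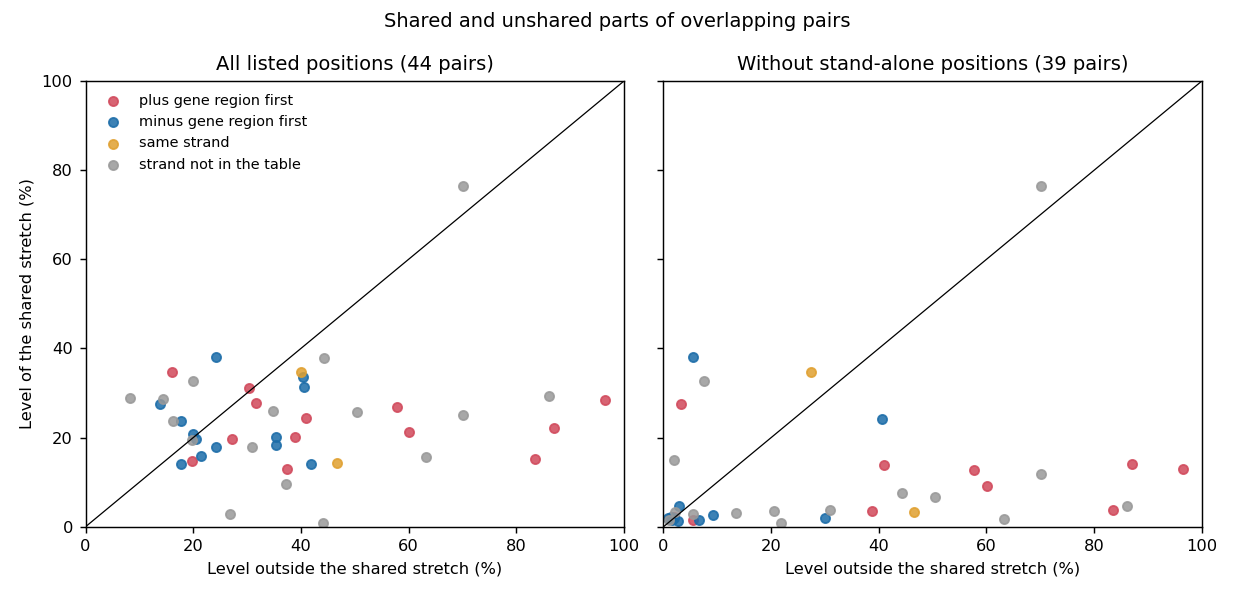
Methylation level (%) of the stretch inside both regions against the level of the parts inside only one, 1 point per pair, mean of 6 samples, coloured by the order of the genes, with all positions (left, 44 pairs) and without stand-alone positions (right, 39 pairs). The line marks equal levels, and 33 of 44 points in the left panel lie below it.

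The lowest common stretches included a chain of 3 regions and a pair around an RNA-processing gene. The Pdia2, Arhgdig and Rgs11 regions form a chain of 3 on chr17, with Pdia2 a protein disulfide isomerase and Rgs11 a regulator of G protein signalling. The stretch inside both Pdia2 and Rgs11 (chr17:26337907-26338032, 126 bp) held 13 positions at 1.33%, 1.06% and 1.01% in the exercised and 0.524%, 0.918% and 0.505% in the sedentary samples, the lowest of the 43 pairs with at least 10 common positions covered 20 or more times on average. The stretch of Pdia2 and Arhgdig averaged 2.82% over 14 positions and that of Arhgdig and Rgs11 9.55% over 24, or 1.87% without stand-alone positions. The 3 values share positions. The 3 positions of Rgs11 alone averaged 37.3%, or 7.60% over 2 without the stand-alone one.

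For Cpsf7 and Sdhaf2, the common stretch (chr19:10598700-10600733 in mm9) held 21 positions at a mean coverage of 75.02 reads. Its level was 13.7%, 14.0% and 11.1% in the exercised and 12.4%, 13.5% and 15.03% in the sedentary samples, and the groups overlapped. Without 5 stand-alone positions 16 remained, at 1.25%. Sdhaf2's own 2 positions averaged 59.3%. Naif1, a nuclear factor that promotes apoptosis, and Slc25a25, a mitochondrial ATP-magnesium carrier, had 72 common positions at 12.99% (1.60% without stand-alone positions), and Slc25a25's own 6 averaged 37.5% (5.52% over 3 without them).

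The highest common stretches kept much of their level when stand-alone positions were left out in 3 of 5 pairs. Clcn2 and Polr2h had the highest of these 43 pairs: 16 positions at 34.5%, 36.0% and 35.4% in the exercised and 36.0%, 36.0% and 41% in the sedentary samples (chr16:20715899-20718709 in mm9), with no position among them that met the stand-alone rule. Single positions of this stretch still lay far apart, from 0.0% in both groups to 99.1% in the exercised and 95.45% in the sedentary mean. Slc9a5 and Fhod1 were next, at 34.8% over 16 positions and 27.6% without stand-alone ones, and the 20 positions of Fhod1 alone averaged 16.1% (3.21% over 15 without stand-alone ones), so here the common stretch lay above the rest. Hnrnpul2, an RNA-binding protein, and Ttc9c had 28.6% over 17 common positions (14.9% without stand-alone ones) against 14.3% over 17 of Ttc9c alone (2.03% over 15). Pigc, an enzyme subunit of GPI-anchor synthesis, and the gene model 4930558K02Rik had 28.4% over 21 (13.1% without stand-alone ones), against 96.5% over the model's own 4 positions. The fifth pair, Ubl5, a ubiquitin-like modifier, and the F-box gene Fbxl12, had 27.7% over 26, against 31.6% over 4 of Fbxl12 alone, and without stand-alone positions 26.3% over 24 against 3.04% over 2. Another Fbxl12 region, not counted in the directions below, overlaps Ubl5 by 550 bp with no position in common. Its own 6 positions averaged 18.5% (1.64% over 5 without stand-alone ones), below the 27.7%. Among these 5 pairs the stretch was below the rest in Clcn2 and Polr2h (where 1 outside position stood at 98.6%), Pigc and Ubl5, and above it in the other two. Without stand-alone positions the direction turned for Ubl5.

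Psmb1, a proteasome subunit, and Tbp, the TATA-binding protein, were the only textbook bidirectional pair of the list used that the table held as an overlap. Their common 2389 bp (chr17:15634852-15637240) held 10 positions at 19.4%, or 3.06% over 8 without stand-alone positions, and 7 positions of Tbp alone averaged 19.7%, or 13.5% over 4 without them. The common stretch was measured at 96.5 reads per position. Shoc2, a scaffold of Ras signalling, and Bbip1, a subunit of the ciliary BBSome, overlapped through 2 Shoc2 transcripts at 19.2% in both cases (2.01% over 42 positions and 1.93% over 46 without stand-alone ones). Of the other long overlaps, Sarm1, an enzyme of axon degeneration, and Vtn, vitronectin, had 31.4% over 9 positions (24.1% over 7 without stand-alone ones), and Nacc1 and Trmt1, a tRNA methyltransferase, 25.9% over 45, or 6.72% without stand-alone ones.

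Where the 2 genes kept separate parts, these could lie far apart in level. The largest gap among the 53 pairs with at least 5 positions in each separate part was between Cygb, cytoglobin, at 22.7% over 30 positions (2.20% without stand-alone ones) and Prcd, a photoreceptor disc protein, at 85.9% over 6. Prcd stood at 89.8%, 84.5% and 82.6% in the exercised and 87.1%, 92.2% and 79.2% in the sedentary samples. Dbndd1 was at 37.5% over 16 positions (28.8% over 12 without stand-alone ones) and Gas8, part of the ciliary dynein regulatory complex, at 91.3% over 6. Mmp11, a matrix metalloproteinase, was at 49.4% over 9 and Chchd10, a mitochondrial intermembrane-space protein, at 11.3% over 7, or 3.58% without the 1 stand-alone position. Tmem151a and Yif1a, an ER-to-Golgi transport protein, stood at 17.8% and 51.9% (1.64% and 35.8% without stand-alone positions), and Chrd, the BMP antagonist chordin, and Thpo, thrombopoietin, at 21.1% (1.23% without them) and 51.4%. In 4 of these 5 pairs the part with fewer listed positions had the higher level, and Mmp11 with Chchd10 was the exception.

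**Figure D4:**
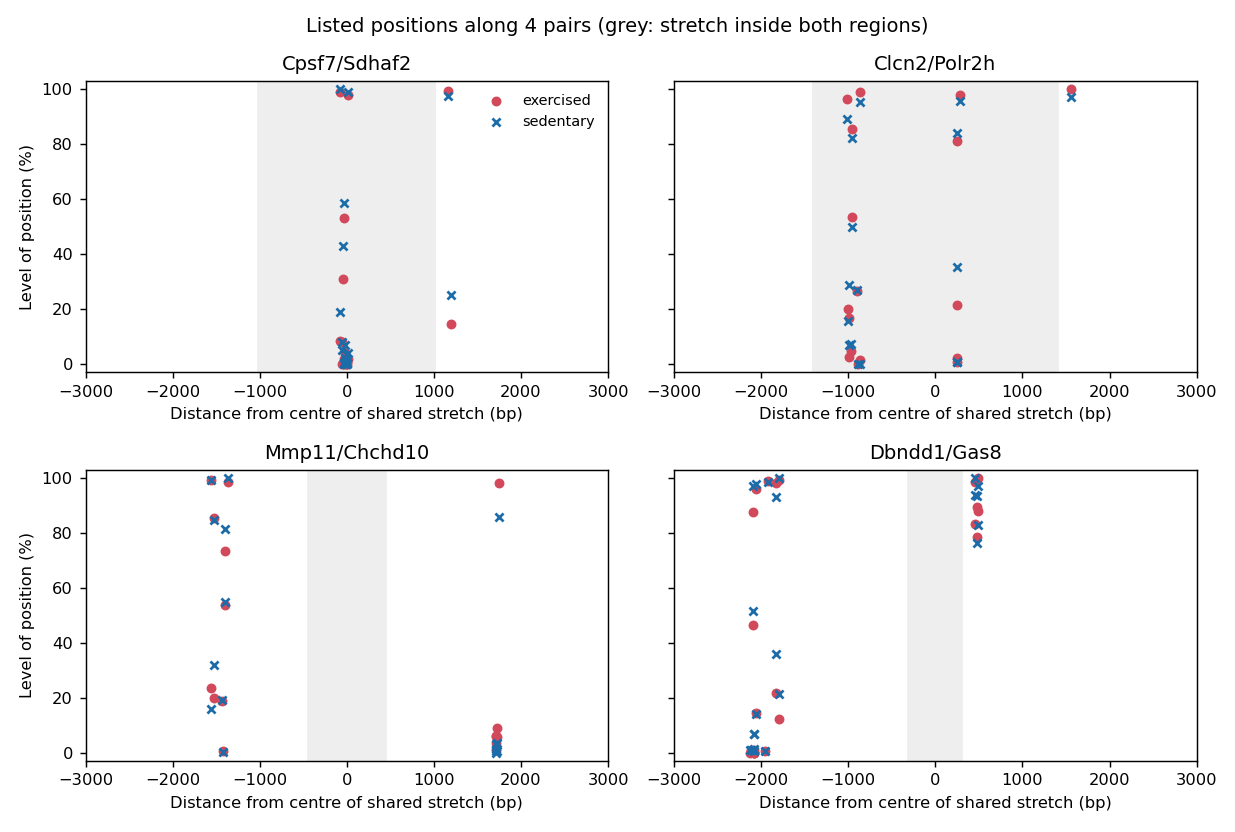
Methylation level (%) of each listed position in exercised (red circles) and sedentary (blue crosses) samples, mean of 3, against distance in bp from the centre of the stretch inside both regions (grey) in 4 pairs. Cpsf7 and Sdhaf2 have their positions near the centre, Clcn2 and Polr2h hold 16 in the grey stretch, and the other pairs have none in it.

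Over the 67 pairs with at least 3 positions in each separate part, the levels of the 2 parts were weakly related (Pearson correlation 0.188, Spearman correlation 0.257, across pairs that share the libraries), and these were 0.216 and 0.221 over 63 pairs without stand-alone positions. In 27 of those 63 pairs both parts were under 10%, and in 6 one part was at 50% or more and the other under 10%. The shortest overlaps, Defb25, a beta-defensin, with Rem1 (46 bp), Bdp1 with Serf1 (52 bp) and Gemin7, of the SMN complex, with Zfp296 (57 bp), had no position in common. Their parts stood at 63.3% and 40.7% (Rem1 38.2% without stand-alone positions), 16.2% (8.72% without them) and 36.9%, and 5.22% and 57.3%. Gemin7's value rested on exercised sample 1 at 22.1%, and was 1.84% without that sample.

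Exercise was not associated with a change that passed the test in any overlapping region. The mean level of the 228 regions was 30.1%, 30.01% and 28.5% in the exercised and 29.5%, 29.5% and 29.5% in the sedentary samples, so that the exercised samples lay on both sides of the sedentary ones. The group means, 29.6% ± 0.899 and 29.5% ± 0.0267 (SD, n = 3 each), differed by 0.0643 points (exact two-sided permutation test, p = 1.0, where 0.1 is the smallest the design allows). The difference relative to non-overlapping regions was -0.228 points (exact permutation test, p = 0.5), and the common stretches of 58 pairs averaged 23.1% ± 0.569 and 22.9% ± 0.707 (difference 0.213 points, exact permutation p = 0.7).

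Region by region, edgeR's quasi-likelihood test with Benjamini-Hochberg adjustment called 0 of 228 overlapping regions at 0.05, where 0.0% of all 10021 regions tested were called. At an unadjusted p under 0.05 edgeR gave 7 (3.07%), against 2.37% of all regions. The counts by limma, 12, and by a quasi-binomial model, 9, cannot be set against that share, which is edgeR's alone. Of the 7, 3 were higher after exercise (1.46% of all regions) and 4 lower (0.908% of all). The 3 exercised and 3 sedentary values did not overlap in 23 regions (10.1%), against 7.25% of all regions. In 14 of them exercised was higher (4.91% of all regions) and in 9 lower (2.35%). Differences ran from -13.8 to 7.53 points with a median of 0.273, against 0.390 over all regions tested. In the authors' deposited table, 132 of 4375 member positions with a p-value had one under 0.05 (3.02%), against 3.14% of all positions. Of the 132, 88 were higher and 44 lower after exercise, and the same split over all positions is not given here. By sign alone, 126 of the 228 overlapping regions and 6117 of all 10021 tested regions were higher.

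The regions with the smallest unadjusted p on the higher side are named with edgeR's adjusted p of 0.9998, the value for each region named here. Ppm1n, a protein phosphatase gene overlapping Rtn2 (chr7:19864399-19867398), stood at 26.8%, 24.6% and 25.1% in the exercised and 19.96%, 22.5% and 21.7% in the sedentary samples, a difference of 4.17 points with no overlap. Without stand-alone positions its difference was -0.25 points. Chchd10 (chr10:75396318-75399317) stood at 14.6%, 15.7% and 12.1% against 4.76%, 10.4% and 10%, a difference of 5.70 points over 7 positions, with the groups apart, and 3.59 points over 6 without the stand-alone one. Gcc1, a golgin of the Golgi apparatus overlapping Arf5, differed by 3.20 points with the groups apart (2.67 points without stand-alone positions).

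B4gat1, a glycosyltransferase that modifies dystroglycan, was 30.8% ± 0.927 against 26.3% ± 2.25 (SD, n = 3), a difference of 4.49 points that was 0.217 without stand-alone positions. Bdp1, a subunit of the RNA polymerase III factor TFIIIB, differed by 3.37 points with overlapping groups, or 2.19 without exercised sample 1 and 1.62 without stand-alone positions. The 5 regions on the higher side differed by 3.20 to 5.70 points.

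On the lower side, Nlgn2, a postsynaptic adhesion protein overlapping Tmem256 (chr11:69647352-69650351), stood at 33.2%, 42.9% and 30.7% in the exercised and 42.6%, 49.6% and 56.1% in the sedentary samples. Its difference of -13.8 points was the largest of the members, over 7 positions, and the groups overlapped between exercised 2 and sedentary 1. Icam4, an adhesion molecule of red cells that lies beside Icam5 on the same strand (chr9:20831817-20834816), stood at 36.3%, 34.9% and 32.8% against 38.6%, 40.1% and 43.4%, with the groups apart by a difference of -6.05 points over 14 positions.

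Ccs, the copper chaperone of superoxide dismutase 1 (chr19:4838323-4841322), stood at 82.3%, 82.6% and 82.3% against 88.4%, 89.1% and 91.7% over 3 positions. The groups were apart by -7.33 points, but with the positions inside its region that are listed under Ccdc87 added, the difference was 2.79 points. Mymx, the myoblast fusion peptide myomixer (chr17:45737865-45740864), stood at 75.1%, 80.1% and 68.7% against 81.0%, 82.9% and 80.6% over 4 positions, a difference of -6.79 points, or -3.83 without exercised sample 3. Tmem238 differed by -2.04 points with overlapping groups, or -1.07 without sedentary sample 3 and -0.46 without stand-alone positions.

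**Figure D5:**
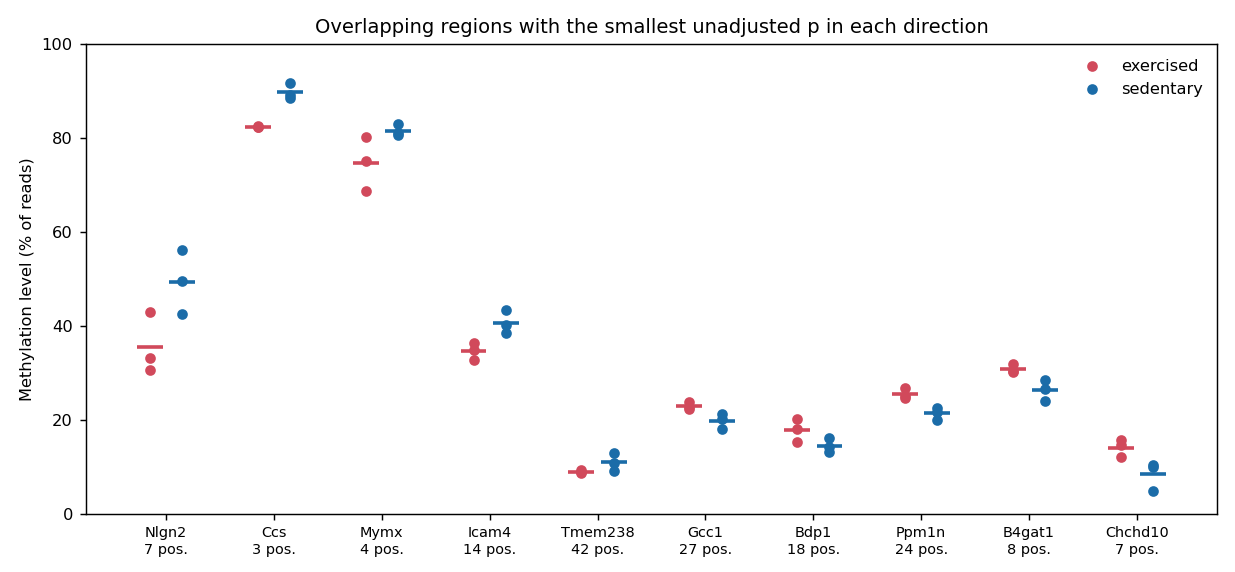
Methylation level (% of reads) in each exercised (red) and sedentary (blue) sample of the 10 overlapping regions with the smallest unadjusted p, 5 in each direction, with the number of listed positions; bars are group means of 3. None passed adjustment, and the dots of Nlgn2, Bdp1 and Tmem238 overlap between groups.

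Gene groups associated with shared promoters showed no called member. DNA repair and replication held 2 tested regions (Fancm, of the Fanconi anaemia pathway, and Mcm2, of the replicative helicase), mitochondrial proteins 6 (3 higher, 3 lower by sign, median difference -0.207 points), cytosolic ribosomal proteins 6 (5 and 1, median 0.111), proteasome and chaperones 6 (4 and 2, median 0.374) and the list of tRNA synthetases and RNA processing 5 (3 and 2, median 0.682). Of these 5, Polr2i, Polr3a and Polr3gl are RNA polymerase subunits and Hnrnpul2 and Prpf6 act on RNA. Over all regions tested the median was 0.390 points. The lists are not complete: Chchd10 and Slc25a25, described above as mitochondrial, are not among the 6 tested mitochondrial proteins. Histone, imprinted and microRNA host genes, and markers of endothelium, leukocytes, adipocytes, fibroblasts, nerve and smooth muscle, had 0 overlapping regions.

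Levels within these groups covered a wide range. The ribosomal proteins ran from 11.6% to 57.7%, the highest being Rpl3l, a muscle form of ribosomal protein L3 whose region overlaps Ndufb10, at 60.02% ± 5.95 in the exercised and 55.3% ± 7.93 in the sedentary samples (SD, n = 3, 4 positions), a difference of 4.71 points that was 0.757 without sedentary sample 1. Ndufs6, a subunit of respiratory complex I overlapping Mrpl36, was 26.7% ± 2.63 against 23.5% ± 0.800, a difference of 3.13 points that was 1.75 without exercised sample 1 and 1.59 without stand-alone positions. Mrps5, a mitochondrial ribosomal protein, was 20.7% ± 4.31 against 26.7% ± 3.90, and this difference of -6.04 points was 1.58 where positions had at least 20 reads in all samples. Sgcb, beta-sarcoglycan of the dystrophin complex and the only member in the muscle list, stood at 42.0% ± 4.61 against 40.98% ± 2.50, and the homeobox gene Pbx2 at 72.4% ± 4.62 against 71.1% ± 9.13. Flot1 and Nkiras2, caught by a name pattern for antisense transcripts, are ordinary protein-coding genes, at 44.2% and 18.7%.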

How the data were processed

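RRBS reads were processed by the authors with Trim Galore 0.2.5, cutadapt 1.0, Bismark 0.7.7 and Bowtie 0.12.9 on build mm9, per the submitters' processing notes. What each tool did, and with which settings, is not given in the sources. The authors deposited 1 table with the methylated fraction (0 to 1) and the count of covering reads per position and sample, and a p-value and a difference of group means per position. The lowest deposited count was 10, and fraction times count came within 0.00236 of a whole read. Methylated reads were taken as that product and summed per region. Regions with at least 3 positions were fitted together with edgeR 4.0.16 (quasi-likelihood, no dispersion trend, R 4.3.3), checked on simulated data; limma 3.58.1 and a quasi-binomial model were alternatives. Single values were tested by exact permutation over samples, 10 splits of 3 against 3 or 64 sign flips. No 2 samples agreed within sampling noise (lowest mean chi-square per position 1.64). Regions were named by these rules: textbook pairs; smallest unadjusted p (5 per direction, coverage at least 20); highest and lowest common stretch (5 each); largest gap between separate parts (5); 2 per gene list; chains of 3 regions; shortest and longest overlaps (3 each). The members, lists and rules were chosen with earlier results of these data known. Sequences and strands are from RefSeq (GRCm38.p6), the first entry per symbol. Intervals of counting error were not computed, because samples serve as replicates.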

Additional observations from a re-analysis of the deposited data

How the results depend on the processing

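No setting called an overlapping region at an adjusted p of 0.05, and counts at an unadjusted p ran from 4 to 12 (4 with at least 20 reads per position and 4 without stand-alone positions by the median rule, 12 with limma, 11 without sedentary sample 2). The share of all regions at that p is given here for the main setting alone, so these counts are not read as high or low. The labels do not say whether equal replicate numbers pair the samples. Deviations of same-numbered samples correlated at 0.0190, -0.219 and -0.111, and those of other numbers at -0.101 to 0.221, which shows no sign of pairing but cannot settle it. The fit with the replicate block called 0 regions, with 6 at an unadjusted p against 7. Leaving out 1 sample, the smallest possible sign-flip p is 0.0625. The excess of overlapping over non-overlapping regions then ran from 2.01 to 2.17 points and the common stretch minus the rest from -15.3 to -14.7. The excess was 0.358 points with 1 region per chain and 0.0862 at the same position count, strand and distance (the latter, the median rule, the rebuilt regions and the first or second split were chosen after seeing the data).

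The exercise difference of all overlapping regions, 0.0643 points, ran from -0.224 to 0.582 when 1 sample was left out. It was -0.0122 with at least 20 reads per position, -0.169 without stand-alone positions, and, also without them, -0.126 in first and -0.215 in second regions. That of the common stretches, 0.213 points, ran from -0.195 to 0.526 with 1 sample left out, and was -0.0216 and -0.124 without stand-alone positions by the mean and the median rule. With 1 sample left out, differences changed sign for Fancm (-0.660 to 3.25), Mcm2 (-1.90 to 0.229), Rps24 (-4.64 to 0.789), Sgcb (-1.39 to 3.18), Pbx2 (-3.92 to 4.49), 4930558K02Rik (-2.95 to 0.232) and C030006K11Rik (-0.123 to 1.83). Other changes of sign were Ppm1n (-0.253) and C030006K11Rik (-0.424) without stand-alone positions, Ccs (2.79) and 4930558K02Rik (1.26) with all positions inside the region, and Mrps5 (1.58) and C030006K11Rik (-1.10) with at least 20 reads. The cause was not tested. Depth was lowest in sedentary sample 3.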
